A study of Mus musculus with 4 samples.

Results

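Transcript levels were compared between fully grown mouse oocytes with Dcaf13 deleted and fully grown control oocytes. All mice were of C57B6 background and carried floxed Dcaf13 alleles on both chromosomes (Dcaf13fl/fl), and the deletion group also carried the Gdf9-Cre transgene (Dcaf13fl/fl;Gdf9-Cre). Gdf9 is an oocyte gene whose promoter was used to direct Cre to the oocyte, so that granulosa and other ovarian cells keep Dcaf13 by design. The oocytes came from mice of 23 days that had received 5 IU of the gonadotropin PMSG 48 h earlier, and the 10 oocytes of a sample were pooled into 1 library. Each side of the comparison is therefore a single library, without a replicate, and no test, error or p-value can be given. Growing oocytes from mice of 14 days, for which the labels state no PMSG, made up the other 2 of the 4 libraries and are used below only to set the same genes side by side. Genes were compared where at least 1 of the fully grown libraries reached 5 FPKM (a fragment count divided by transcript length and by the mapped fragments of that library), which held for 7413 of the 23235 genes in the table. Fundc1 (5.008 FPKM at its higher library) was just inside this minimum and Blvrb (4.997) just outside. Gene symbols and values ran in different sort orders in the deposited table and were paired again by byte order, an inference from the values that was not checked with the submitters.

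DCAF13 is a nucleolar WD40 protein of the machinery that trims the ribosomal RNA precursor into the RNA of the small ribosomal subunit. It also serves as one of the substrate receptors of the CRL4 ubiquitin ligase, in which the cullin scaffold and the adaptor DDB1 present proteins for ubiquitination. A fully grown oocyte rests in prophase of the first meiotic division, with transcription largely shut down. Its RNA is a store that was laid down during growth and is later translated and degraded in a set order.

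Both libraries had the profile of oocytes. The 18 oocyte markers summed to 31035 FPKM in control and 30816 in deletion, and all 18 were above 1 FPKM. Of 13 granulosa and cumulus markers, 5 reached 1 FPKM in some library. The 13 summed to 27.7 and 30.8 FPKM, mostly from the aromatase gene Cyp19a1 (18.99 and 16.8). Cyp19a1 was lower in deletion, while the sum and the median of the list (0.23 and 0.69 FPKM) were higher. The 5 endothelial markers summed to 12.5 and 19.1 FPKM, almost all of it Pecam1 (12.3 and 18.7), while Cdh5 was listed at 0 in both. Theca and stroma (9 markers, 1.32 and 1.37), immune cells (6 markers, 1.22 and 1.81) and red blood cells (5 markers, 0.125 and 0.077) were near 0, and the part of any of these cells in the results was not tested. In pooled samples, fewer cells of a type and less RNA per cell cannot be told apart. All values of a library summed to 669104 FPKM in control and 678437 in deletion, with 10500 and 10469 genes at 1 FPKM or more, and FPKM does not give the depth of a library.

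Most transcripts stood at nearly the same level in both libraries. A change is given throughout as deletion minus control in log2(FPKM + 1), where 1 is about a doubling and low genes are understated. Its median over all 7413 genes was 0.04, and 4076 genes (54.98%) lay above control. By the size rule, a change of at least 1 in either direction, 80 genes were higher in deletion (1.08% of all) and 81 lower (1.09%). Cnpy4 (1.003) was just inside this rule, and Pde6d (-0.996) and Oas1f (-0.997) were just short of it. The spread narrowed with abundance. Of the 3373 genes at 5 to 20 FPKM, the central 95% lay between -0.83 and 0.88, and 59 were higher and 43 lower. For 2749 genes at 20 to 100 FPKM the range was -0.69 to 0.73, with 16 higher and 33 lower. It was -0.58 to 0.57 for 997 genes at 100 to 500 FPKM, with 5 higher and 4 lower, and -0.44 to 0.43 for the 294 genes at 500 FPKM or more. In that most abundant class no gene was higher by the size rule and 1 was lower, the microRNA gene Mir762 (729 and 362 FPKM). These ranges hold any measurement noise of the 2 libraries as well as any effect of the deletion. They served as a second measure: by construction about 2.52% of genes lie above the range of their class and 2.52% below it, 187 on each side.

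**Figure D1:**
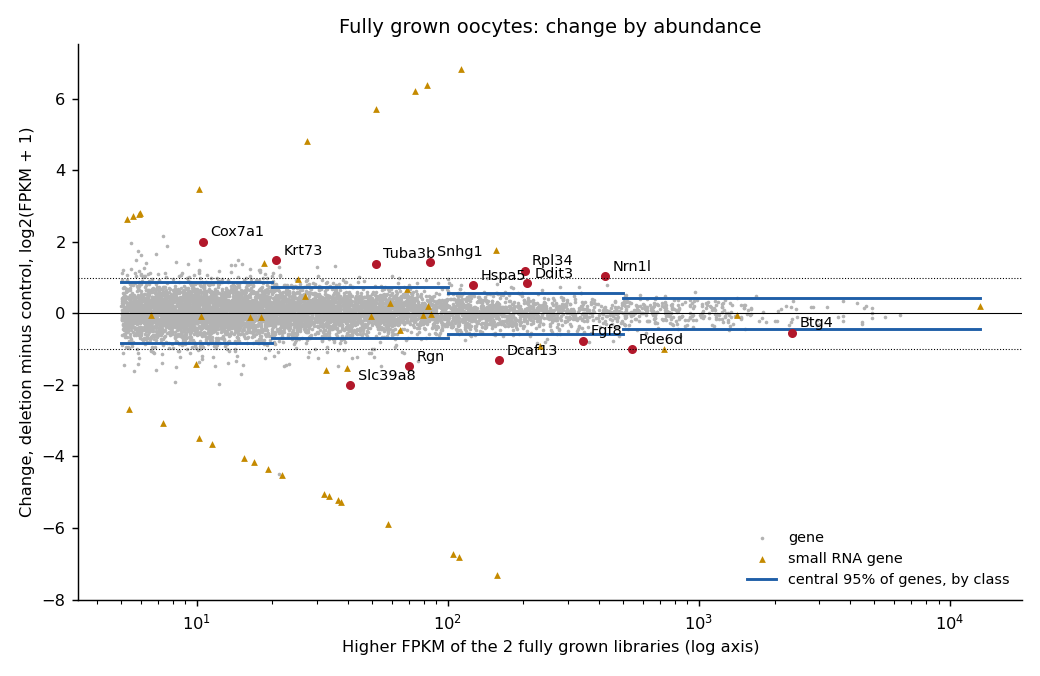
Each point is 1 of the 7413 genes at the minimum, with its higher FPKM of the 2 fully grown libraries (log axis) against its change in log2(FPKM + 1). Triangles are small RNA genes and the row of the ribosomal RNA precursor, Rn45s. Blue lines span the central 95% of genes in each abundance class, from -0.83 to 0.88 at 5 to 20 FPKM and from -0.44 to 0.43 at 500 FPKM or more, and dotted lines mark the size rule of 1.

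The points farthest from 0 were genes of short RNAs. MicroRNA, small nucleolar and other small RNA genes had 48 members at the minimum. The 48 include Rn45s, the row of the ribosomal RNA precursor, which is not a small RNA and was not past the size rule. The set made up 12 of the 80 higher and 20 of the 81 lower genes. Of these, 10 of the 12 were listed at 0 in control and 16 of the 20 were listed at 0 in deletion. Mir155 was at 113 FPKM in deletion and Snord95 at 82.6, both listed at 0 in control. Mir5116 was at 158 FPKM in control and Snord83b at 111, both listed at 0 in deletion. All 4 of these genes were also listed at 0 in both growing libraries, so the signal sat in 1 library of 4. They were named after their values were seen. FPKM divides by transcript length, so for a gene this short a few fragments make a high value. Without small RNA genes, 68 genes were higher and 61 lower, of which 15 and 26 reached 20 FPKM. The single further gene listed at 0 on one side was LOC100302567 (21.3 FPKM in control).

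Dcaf13 itself stood at 160.2 FPKM in control and 64.01 in deletion, a change of -1.31. The gene lies on chromosome 15, plus strand, at 38944420 to 38978401 (mm9). The deletion library thus held 39.95% of the control level. In growing oocytes the values were 96.1 and 38.9 FPKM, so both libraries held less at the younger stage, and the change there was -1.28. Small RNA genes aside, it was the only gene at 100 FPKM or more that was lower by the size rule in fully grown oocytes. The value covers the gene as a whole and cannot tell the floxed exons from the rest, and fewer oocytes with recombined alleles cannot be told apart from less RNA in each.

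The partners of DCAF13 in the ligase stayed near their control levels. Of 26 genes of the Cul4 ligase core and its regulators, 24 were at the minimum, none was past the size rule or outside its class range, and changes ran from -0.41 (Cops2) to 0.44 (Ddb1). Ddb1, the adaptor that holds the receptors, stood at 47.5 FPKM in control and 65.03 in deletion. The scaffold gene Cul4b was at 63.3 and 57.4 FPKM and its paralog Cul4a at 4.95 and 5.53. Nedd8, the ubiquitin-like modifier that activates cullins, was at 499 and 566, and the RING subunit gene Rbx1 at 269.9 and 239.7. These levels lay on both sides of control. Of 46 genes of DCAF substrate receptors, 33 were at the minimum, 19 of them (57.6%) above control, against 54.98% of all genes. Their median was 0.12 (0.06 with rescaling). Dcaf13 was the only one past the size rule. Wdtc1 was above its class range, at 19.1 FPKM in control and 34.9 in deletion, although in growing oocytes it stood below control (38.95 and 32.5). Rbbp7, a histone-binding protein of several chromatin complexes and the most abundant of the list, was at 742 and 760.2 FPKM.

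Slc39a8, which encodes a transporter of zinc and manganese, had the largest decrease among genes at 20 FPKM or more, with small RNA and predicted genes left out here and in the following sets. The gene lies on the plus strand of chromosome 3 at 135488455 to 135551536 (mm9). It stood at 40.8 FPKM in control and 9.39 in deletion, a change of -2.01, and at 41.9 and 19.5 in growing oocytes. No other gene of zinc handling was past the size rule. Of 30 zinc transporter and metallothionein genes, 11 were at the minimum, and the other 10 ranged from -0.45 for the metallothionein gene Mt2 to 0.34 for the zinc exporter gene Slc30a5. Slc30a3, the most abundant of them, was at 163 and 169 FPKM. The importer genes Slc39a6 (53.8 and 68.2) and Slc39a10 (59.6 and 57.2) lay on either side of control.

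Other large decreases concerned genes of varied function. Batf3, a basic leucine zipper transcription factor gene, stood at 22.3 FPKM in control and 7.37 in deletion (-1.48). Rgn, the regucalcin gene, whose product binds calcium, was at 69.9 and 24.6 (-1.47). Dhrs3, a reductase that returns retinaldehyde to retinol, was at 23.3 and 8.13 (-1.41). All 3 were also below control in growing oocytes, where Rgn had 27.8 and 4.18 FPKM. Serpinb12, a protease inhibitor gene, was at 41.4 and 16.997 FPKM. Mrap, which encodes the accessory protein of the ACTH receptor, was at 43.6 and 18.2. Zc3h6, a CCCH zinc finger gene, was at 50.7 and 21.02. The remaining decreases in this set were Fam84a (-1.43), Fam113b (-1.24) and the prolactin family gene Prl8a2 (-1.19), all on the same side in growing oocytes. Ublcp1, which encodes a phosphatase acting on the nuclear proteasome, was the exception. It was at 27.7 FPKM in fully grown control and 11.2 in deletion, but at 49.4 and 61.8 in growing oocytes.

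The largest increases at 20 FPKM or more were again of mixed function. Krt73, an epithelial keratin gene, stood at 6.76 FPKM in control and 20.8 in deletion (1.49). Snhg1, a noncoding RNA whose introns encode small nucleolar RNAs, was at 30.4 and 84.5 (1.45). Cldn15, a tight junction claudin gene, was at 11.6 and 30.05 (1.30). All 3 stood above control in growing oocytes too, with 6.42 and 29.4 FPKM for Krt73. Crlf2, the cytokine receptor gene of TSLP, had 7.93 and 21.2 FPKM, and Tmem205 had 8.69 and 20.1. Prr23a (1.08) and Taok3, a protein kinase gene (1.06), completed the set besides genes described below. In growing oocytes Taok3 (-0.08) and Hist1h4d (-0.07), described below, were slightly under control. Crlf2 (0.80), Tmem205 (0.52) and Prr23a (0.68) were above control there. With median-ratio rescaling of the libraries Taok3 (0.997) missed the size rule, and without the trend of change with GC content and transcript length so did Taok3 (0.999), Crlf2 (0.85), Prr23a (0.70) and Prl8a2 (-0.93).

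**Figure D2:**
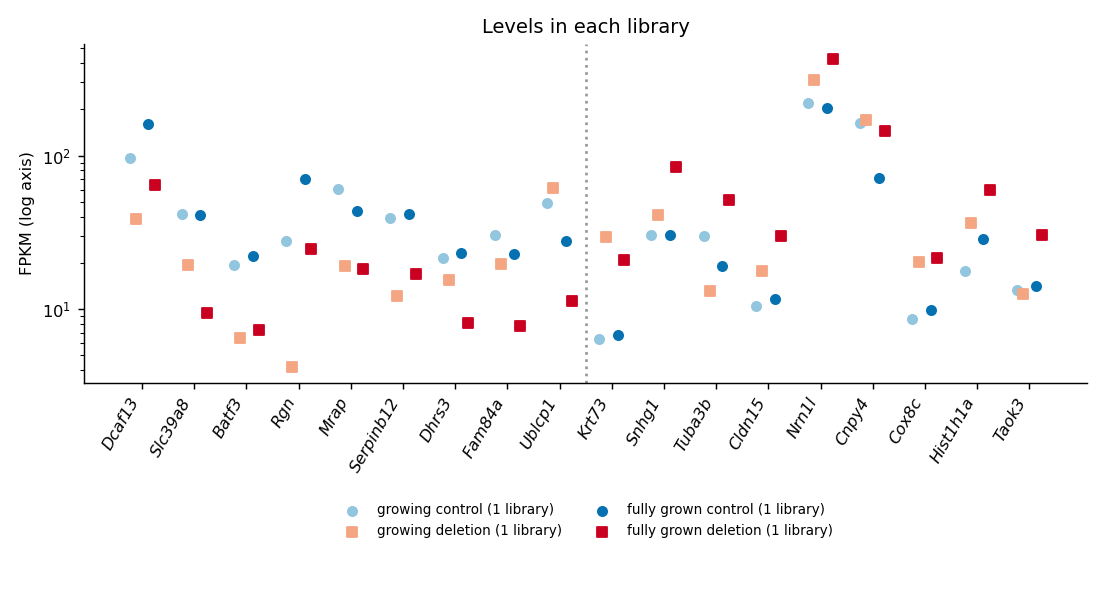
FPKM (log axis) of 18 genes in each of the 4 libraries, with circles for control and squares for deletion, lighter for growing and darker for fully grown oocytes. Genes to the left of the dotted line were lower in the fully grown deletion library, such as Dcaf13 (160.2 to 64.01), and genes to the right were higher, while the growing libraries of Ublcp1 and Tuba3b stand the other way round.

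Among abundant transcripts the differences were smaller but could be read against a narrower range. Nrn1l, a paralog of neuritin, stood at 205 FPKM in control and 423 in deletion, and Cnpy4, a canopy family gene of the endoplasmic reticulum, at 71.2 and 144. Both were above control in growing oocytes as well, by 0.50 and 0.06. With rescaling neither was past the size rule (0.98 and 0.94), and with the GC and length trend removed Nrn1l was not (0.87). Tfap2e, a transcription factor gene of the AP-2 family, was at 87.98 and 156 FPKM, outside its class range, but below control in growing oocytes (-0.35). On the other side, Fgf8, a growth factor that oocytes send to cumulus cells, was at 346 FPKM in control and 203 in deletion. Ggct, an enzyme of glutathione turnover, was at 364 and 210.2. Crabp2, a carrier of retinoic acid, was at 247 and 149, and Vdac2, a channel of the outer mitochondrial membrane, at 117 and 69.4. All 4 of these lay below their class range and below control in growing oocytes, where Vdac2 (-1.16) had the largest difference.

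In the class of 500 FPKM or more, Pde6d had the largest decrease after Mir762. It encodes a carrier of prenylated proteins and was at 539 FPKM in control and 269.6 in deletion, with 455 and 211 in growing oocytes. Next came Oog3, an oogenesin gene (838 and 542), Mdm4, an inhibitor of p53 (615 and 421), and Btg4, an adaptor that brings the deadenylase to maternal mRNA (2349 and 1621). Fbxw28 (-0.46) and Tceb1, which encodes elongin C (-0.46), were also below the class range. On the high side of this class 4 of the 6 largest increases were ribosomal protein genes, and the others were Tpt1 (358 and 510.1), which encodes the translationally controlled tumour protein, and Stra13 (0.48). The 10 most abundant rows of the control library stayed within the class range. They included H1foo, the oocyte linker histone (5519 and 5163), Dppa3, a maternal effect gene (4907 and 4485), and Pttg1, the securin gene (4471 and 3618). Ldhb, a lactate dehydrogenase gene, was at 4797 and 4875 FPKM, a change of 0.02 that became -0.04 with rescaling. Uchl1, a deubiquitinase gene, was at 4396 and 4886 FPKM. The row of the ribosomal RNA precursor, Rn45s, was at 11442 and 13105 FPKM (0.20), and in growing oocytes at 10409 and 9914. Poly(A) priming does not measure this RNA as a whole, so the value says little of its amount.

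Genes of the response to unfolded proteins lay mostly above control, among them several chaperones of the endoplasmic reticulum. Unfolded proteins in this compartment are sensed by IRE1, PERK and ATF6, whose effectors raise chaperones such as HSPA5 and, through ATF4, the transcription factor CHOP, encoded by Ddit3. Of 52 genes of the unfolded protein and integrated stress response, 34 were at the minimum, and 27 of them (79.4%) lay above control with a median change of 0.24, against 54.98% and 0.04 over all genes. None was past the size rule, while 4 lay above their class range, where 2.52% of genes do, and none below. Ddit3 stood at 114 FPKM in control and 206 in deletion (0.85). Hspa5, the main chaperone of the compartment, was at 72.1 and 126 (0.80). Hsp90b1, its HSP90 family member, was at 109.8 and 181 (0.72), and Calr, the calcium-binding lectin chaperone calreticulin, at 127 and 190.5 (0.58).

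The folding enzymes followed with smaller differences. Pdia3, a disulfide isomerase gene, was at 38.1 FPKM in control and 51.8 in deletion, Pdia4 at 50.5 and 61.9, and Pdia6 at 131 and 155. The HSPA5 cofactor gene Dnajb11 was at 71.95 and 94.4, and Creld2, the most abundant of the list, at 219 and 286. Of the sensor genes, Atf6b stood higher, at 4.45 FPKM in control and 8.21 in deletion (0.76), and is named here after its values were seen. Ern1, Atf6 and Atf4 differed less. Ern1, which encodes IRE1, was at 38.9 and 37.2 FPKM, Atf6 at 8.05 and 8.51, and Atf4 at 128 and 129. Several secretory chaperones stayed at control, among them Hyou1 (21.4 and 21.5), Dnajc3 (40.6 and 40.4) and the calreticulin relative Canx (65.1 and 59.5). The PERK gene Eif2ak3 and Xbp1, together with ATF4 targets such as Atf3, Trib3, Chac1 and Asns, were among the 18 genes under the minimum. In growing oocytes the list lay nearer to control, with 23 of the 34 above control and a median of 0.07. Hsp90b1 (150.03 and 161 FPKM) and Calr (192 and 198) had almost the same level in both growing libraries, and Ddit3 (0.38) and Hspa5 (0.40) stood above control there as well. The fully grown median was 0.16 with the GC and length trend removed and 0.18 with rescaling. Pecam1, at 12.3 and 18.7 FPKM, made up almost all of the sum of the 5 endothelial markers (12.5 and 19.1). It was the only 1 of the 5 to reach 1 FPKM, so the higher sum in the deletion library rests almost wholly on this gene. The part of endothelial cells in these values was not tested. Apart from the most abundant genes, the members singled out here were named after their values were seen.

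**Figure D3:**
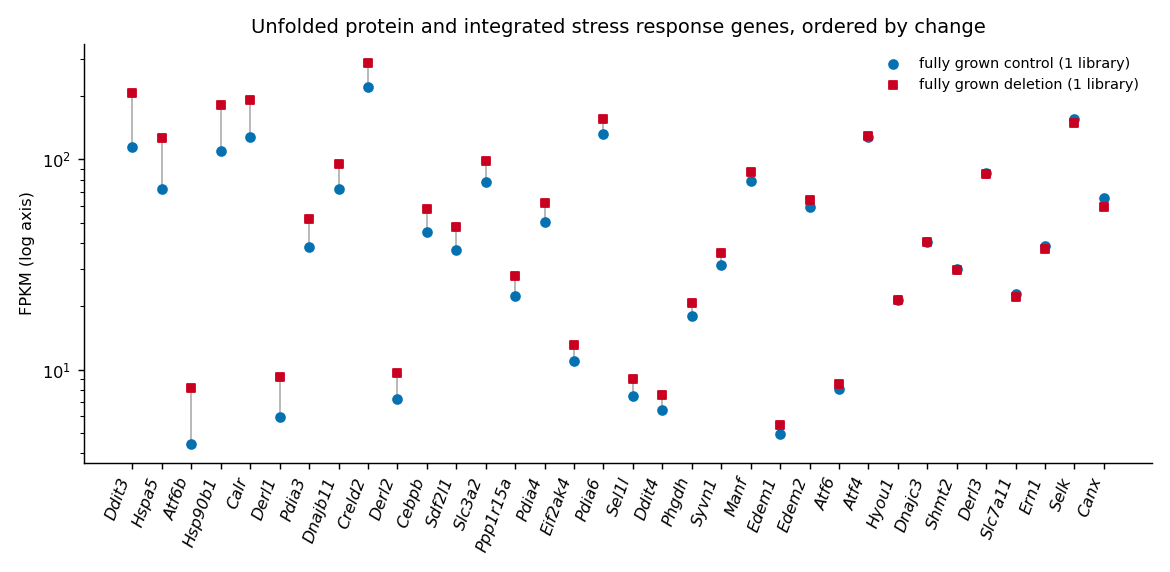
FPKM (log axis) of the 34 genes of the unfolded protein and integrated stress response at the minimum, ordered by change, with circles for the fully grown control and squares for the fully grown deletion library (1 library each). In the first 27 genes the square lies above the circle, with the widest gaps at Ddit3, Hspa5, Atf6b and Hsp90b1, and the last 7 genes, from Dnajc3 to Canx, lie slightly below control.

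Promoters of these genes often carry the endoplasmic reticulum stress response element, which reads CCAAT, 9 bases of any kind and CCACG, and through which ATF6 and XBP1 act together with the CCAAT factor. It was searched for on both strands in the 250 bases before the start of each gene in the RefSeq promoter table (GRCm38.p6). It is shown for the 3 chaperone genes with the largest change among those that hold it, and for Canx, which holds it too but stood at -0.13. Lower case gives the promoter from 5′ to 3′ on the strand of the gene, and capitals mark each match to the element.
Hspa5: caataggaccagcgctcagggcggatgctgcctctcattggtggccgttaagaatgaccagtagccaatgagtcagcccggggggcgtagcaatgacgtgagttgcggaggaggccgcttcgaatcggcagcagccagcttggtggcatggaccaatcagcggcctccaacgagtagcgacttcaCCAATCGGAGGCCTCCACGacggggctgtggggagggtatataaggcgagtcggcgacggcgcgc
Hsp90b1: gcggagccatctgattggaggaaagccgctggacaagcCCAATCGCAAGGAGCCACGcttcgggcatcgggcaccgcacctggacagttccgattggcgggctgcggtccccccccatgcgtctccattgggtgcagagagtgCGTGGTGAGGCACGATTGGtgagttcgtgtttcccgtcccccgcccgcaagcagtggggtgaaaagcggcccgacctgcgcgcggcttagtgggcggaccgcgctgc
Calr: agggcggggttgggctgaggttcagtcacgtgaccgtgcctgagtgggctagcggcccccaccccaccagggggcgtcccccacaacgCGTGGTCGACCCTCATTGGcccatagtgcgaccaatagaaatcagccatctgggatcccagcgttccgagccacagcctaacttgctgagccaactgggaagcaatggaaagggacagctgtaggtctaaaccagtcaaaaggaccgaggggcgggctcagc
Canx: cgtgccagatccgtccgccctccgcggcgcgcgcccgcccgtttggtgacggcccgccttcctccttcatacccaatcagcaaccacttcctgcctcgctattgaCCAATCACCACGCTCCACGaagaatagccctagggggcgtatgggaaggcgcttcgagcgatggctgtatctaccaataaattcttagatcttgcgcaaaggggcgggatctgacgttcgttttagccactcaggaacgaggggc
These windows lie at chr2:34771840-34772089 (plus strand) for Hspa5, chr10:86705445-86705694 (minus strand) for Hsp90b1, chr8:84846932-84847181 (minus strand) for Calr and chr11:50325674-50325923 (minus strand) for Canx. The match of Hspa5 begins 65 bases before the start, those of Hsp90b1 212 and 107 bases before it, that of Calr 162 and that of Canx 145. Among all 32851 RefSeq promoters, 37 (0.113%) held the element, of 5326 genes at the minimum with a promoter 17 (0.319%), and of 29 genes of the stress list 9 (31.0%). Over all genes at the minimum with a promoter, the 17 with the element had a median change of 0.24, with 11 above control, and the 5309 without it 0.05. The 17 include the 9 of the stress list, which had a median of 0.24, with 6 above control, against 0.27 for the 20 stress genes without the element. Dnajc3 and Derl3 hold it as well and had changes of -0.01 and -0.02. The element and these promoters were chosen after the values were seen, and a match is not evidence that a factor binds there.

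Most ribosomal protein genes were slightly above control. Their products make up the body of both ribosomal subunits, and their mRNAs are among the most abundant of an oocyte. Of the 34 small subunit genes all were at the minimum, 32 lay above control, and the median change was 0.24. Rps27 was at 518 FPKM in control and 731 in deletion and Rps21 at 1044 and 1414, both above their class range. Rps29, the most abundant, was at 4094 and 4534, and Rps4x (762 and 718) was 1 of the 2 below control. Of 51 large subunit genes 49 were at the minimum, with 42 above control, 7 below and a median of 0.25, where 54.98% of all genes lay above control. The 6 above their class range were Rpl34, Rpl26 (246 and 430.3), Rpl12 (167 and 281), Rpl37 (636 and 965), Rpl18 (407 and 583) and Rplp1 (1208 and 1683). Rpl3 (118 and 98.1) had the largest decrease. Without the trend of change with GC content and length the medians were 0.24 (small subunit) and 0.27 (large subunit), and the share of large subunit genes above control was 95.92% in place of 85.7%. In growing oocytes the medians were 0.23 and 0.30. Rpl26, Rpl12, Rps21, Rps4x and Rpl3 were named after their values were seen.

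Rpl34 was the only ribosomal protein gene past the size rule (87.8 and 202 FPKM), and its span overlaps that of another row. How fragments were divided between these rows is not stated, and the part of this in the value was not tested. Rpl34 spans 130429749 to 130433226 of chromosome 3 on the minus strand (mm9), and the row named Rpl34-ps1 spans 130429755 to 130433247 on the same strand. Rpl34-ps1 was at 584 FPKM in control and 618 in deletion. The sum of both rows was 672 and 820.2 FPKM, a change of 0.29 and close to the median of the large subunit genes, against 1.19 for Rpl34 alone. In growing oocytes the sum changed by 0.43 and Rpl34 alone by 1.14.

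Genes that build the ribosome were less uniform than those of its proteins. The small subunit processome, to which DCAF13 belongs, and the other 18S processing factors had 61 genes, 52 of them at the minimum. Of these 36 lay above control with a median of 0.15 (0.09 with rescaling, 0.13 with the GC and length trend removed), and Dcaf13 was the only one past the size rule. Rrp36 was above its class range (14.1 and 24.6 FPKM) and Krr1 below it (23.9 and 14.02). The most abundant, Fcf1, a nuclease-like factor of 18S processing, was at 563 and 611. Of 65 genes of large subunit assembly 53 were at the minimum, 35 of them above control, with none outside its class range. Their median was 0.09, which became 0.03 with rescaling and 0.14 with the trend removed. Npm1, the nucleolar histone chaperone, was at 966 and 1065 FPKM. Of 25 genes of RNA polymerase I and its factors 19 were at the minimum, 11 above control, with a median of 0.07 (0.01 with rescaling) and a range from -0.44 (Rrn3) to 0.74 (Polr1c). Of 39 host genes of small nucleolar RNAs 30 were at the minimum, 18 above control, with a median of 0.15 (0.09 with rescaling, 0.19 with the trend removed). Snhg1 was past the size rule and Snhg6 above its class range (111 and 169), while Snhg5 stood at 20.4 and 13.2, so the noncoding hosts lay on both sides of control. The RNA exosome and its cofactors had 22 of 25 genes at the minimum, 9 of them above control, and a median of -0.03, which turned to 0.06 with the trend removed. Mphosph6 was the most abundant at 1856 and 1564. Krr1, Rrp36, Rrn3, Polr1c, Snhg5 and Snhg6 were named after their values were seen.

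Nuclear genes of complex I and ATP synthase lay mostly above control, by little, where 54.98% of all genes did. All 37 genes of complex I, which passes electrons from NADH to ubiquinone, were at the minimum, 30 of them above control, with a median of 0.16 (0.09 with rescaling, 0.16 with the GC and length trend removed). Ndufs5 (150.2 and 236 FPKM) was above its class range, and Ndufa2, the most abundant, was at 1090.1 and 1099.8. Of 18 ATP synthase genes 17 were at the minimum, 15 of them above control, with a median of 0.12 (0.05 with rescaling, 0.14 with the trend removed). Atp5d (65.4 and 113) and the inhibitor gene Atpif1 (491 and 676) were above the class range, while Atp5e, the most abundant, was at 2288 and 1839, the largest decrease of the list. Complexes II and III were nearer to all genes, with 9 of 14 above control and a median of 0.09 (0.03 with rescaling, 0.17 with the trend removed), and Cyc1 above its class range (17.7 and 32.6). Cytochrome c oxidase, the last complex of the chain, had 16 of 18 genes at the minimum, 10 above control, with a median of 0.10 (0.03 with rescaling, 0.12 with the trend removed). Here 2 of the 16 genes, both of tissue-restricted isoforms, were higher by the size rule, against 1.08% of all genes. They were Cox7a1, at 1.87 and 10.5 FPKM and thus at the minimum only through the deletion library, and Cox8c at 9.85 and 21.4. Their abundant counterparts differed little: Cox7a2 was at 671 and 652 and Cox8a at 879 and 1024. Cox8c missed the rule with rescaling (0.99). The count of 2 is thus no support for a trait of this list. Mitochondrial ribosomal protein genes lay closer to all genes, with 45 of 75 above control and a median of 0.07 (0.01 with rescaling), and Mrpl23 below its class range (128 and 84.5). Cyc1, Ndufs5, Atp5d, Atpif1 and Mrpl23 were named after their values were seen.

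**Figure D4:**
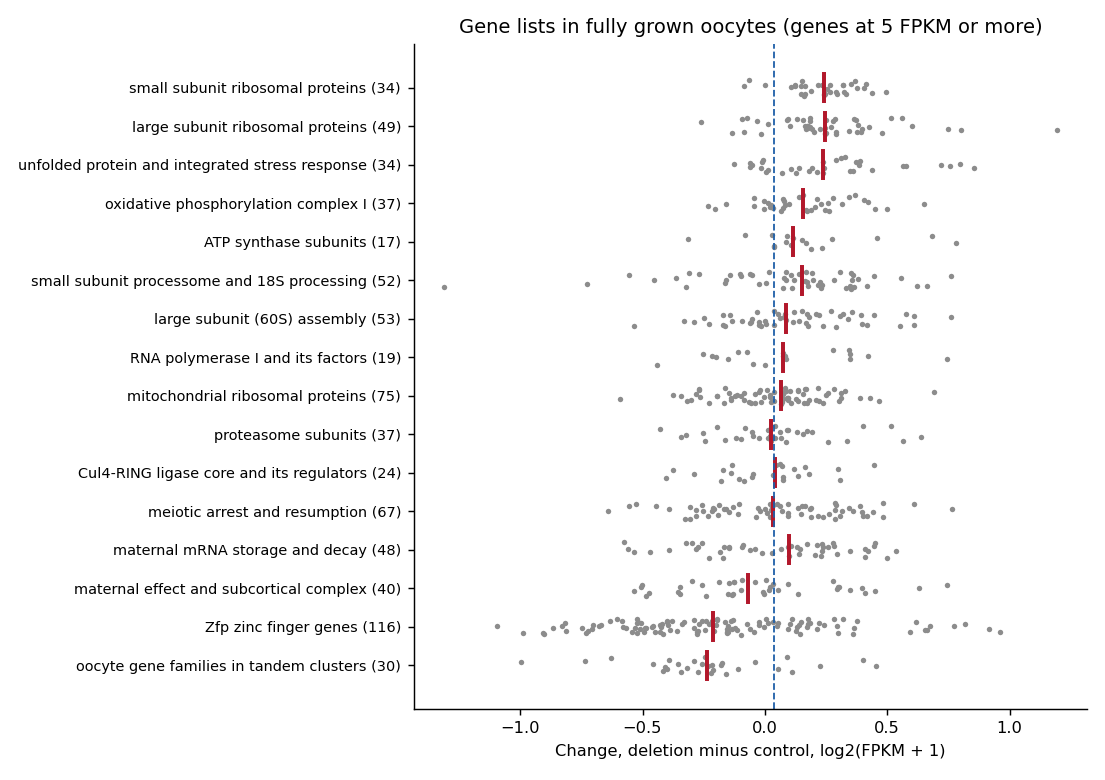
Change in log2(FPKM + 1) of each gene at the minimum (grey points) in 16 gene lists, with the number of genes in brackets, the list median as a red bar and the median of all 7413 genes (0.04) as a dashed line. Medians of the ribosomal protein lists (0.24 and 0.25) and the stress response list (0.24) lie to the right, and those of the Zfp genes (-0.21) and the tandem oocyte families (-0.24) to the left.

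Gene families that are expressed in oocytes from tandem clusters stood below control. These families, which code for F-box and WD repeat proteins (Fbxw), oogenesins (Oog), oligoadenylate synthetase-like proteins (Oas1) and others, have few known functions and many near-identical members, so fragments may be divided uncertainly between them. Of 40 such genes 30 were at the minimum and 24 of these lay below control, with a median of -0.24, against 0.04 for all genes. None was past the size rule and 3 were below their class range, where 2.52% of genes are. Oas1f was at 50.7 FPKM in control and 24.9 in deletion (-0.997), Oog3 at 838 and 542 (-0.63) and Fbxw28 at 564 and 410.2 (-0.46). All but 1 of the Fbxw genes of the list at the minimum lay below control, the most abundant of them Fbxw24 at 2012 and 1734 FPKM and Fbxw15 at 1325 and 1036. Fbxw17 (13.4 and 15.8) was the exception. The Oas1 members were divided, with Oas1c at 390.03 and 416, Oas1d at 626 and 650.3 and Oas1e at 878 and 778. Pramef12 (48.5 and 66.9) had the largest increase. In growing oocytes 3 of the 30 were above control and the median was -0.22. The fully grown median was -0.12 with the GC and length trend removed and -0.30 with rescaling, and the genes had a median GC content of 44.2%, against 49.0% for all genes. Most of the members given here were named after their values were seen.

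Zinc finger genes with Zfp symbols, most of which encode DNA-binding proteins, also lay below control. Of 367 such genes 116 were at the minimum, 80 of them below control and 36 (31.0%) above, with a median of -0.21. Over all genes 54.98% lay above control, with a median of 0.04. By class range 9 lay below and 3 above, where 2.52% of all genes lie on each side. Zfp68 was the only one past the size rule, at 49.3 FPKM in control and 22.6 in deletion (-1.09). Zfp932 was at 53.9 and 30.3 and Zfp58 at 77.9 and 46.8, both of the many Zfp genes with a KRAB repressor domain. Zfp207, a spindle checkpoint protein gene, was at 111 and 73.8. Above the range were Zfp598, a sensor of collided ribosomes, at 14.1 and 25.7, Zfp385a (2.93 and 6.63) and Zfp512 (2.33 and 5.28). The most abundant, Zfp57, a guardian of genomic imprints, was at 1305 and 1309.8. With that trend removed the median was -0.15 and Zfp68 (-0.94) missed the size rule. The genes had a median GC content of 44.1%, and in growing oocytes their median was -0.09. Except for Zfp68, Zfp57 and the second most abundant, Zfp296 (201 and 201), these genes were named after their values were seen.

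The best known oocyte genes were near control on either side, where 54.98% of all genes lay above control. Of 46 maternal effect genes and genes of the subcortical maternal complex 40 were at the minimum, 17 above control, with a median of -0.07 that became 0.02 without the GC and length trend. Btg4 was below its class range, and Hsf1, the heat shock factor gene, above it (22.9 and 38.96 FPKM). Of 26 genes of oocyte-secreted factors and the zona 18 were at the minimum, with 7 above control. Gdf9, the growth factor whose promoter drives the Cre, was at 2049 and 2321, Bmp15 at 836 and 751, Zp3 at 2964 and 3756 and Zp2 at 1994 and 2073. Each of these 4 differed less than the further growth factor genes Fgf8 and Bmp5 (33.5 and 20.1), which were below their class range. Of 37 oocyte transcription regulators 22 were at the minimum, 9 above control. Their median was -0.12 (-0.18 with rescaling, -0.03 with the GC and length trend removed). Gata4 was past the size rule at 4.08 and 10.2 FPKM, but not without the GC and length trend (0.90), and Batf3 was past it on the low side. Tgif1 (-0.83) was below its class range. Nobox stood at 197 and 243, Figla at 83.04 and 84.5, and Obox2, the most abundant, at 2037 and 1759.98. Of 62 genes of maternal mRNA storage and decay 48 were at the minimum, 27 above control, with a median of 0.10 (0.04 with rescaling). Ybx2, which packs stored mRNA, was at 112 and 162, Zar1 at 1085 and 1330.1, and Pan3, of a deadenylase, at 84.4 and 56.3, so that only Btg4 was outside its range. Hsf1, Gdf9, Bmp15, Zp2, Bmp5, Tgif1, Nobox, Figla, Ybx2 and Pan3 were named for their roles or their values after both were seen.

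Genes of meiosis and the spindle held a few outlying members. Their shares above control can be set beside the 54.98% of all genes. Of 71 genes of meiotic arrest and resumption 67 were at the minimum, with 39 above control and a median of 0.03 that became -0.03 with rescaling. Ccnb1, the cyclin that activates Cdk1 at resumption, was below its class range at 481 FPKM in control and 309 in deletion, and Anapc2, of the ligase that degrades it, above at 13.6 and 23.8. Of 49 tubulin and spindle assembly genes 38 were at the minimum and 22 of them above control. Tuba3b, an alpha-tubulin gene, was past the size rule at 19.1 and 51.6 FPKM, whereas in growing oocytes it was past it on the low side (30.2 and 13.04). Tuba3a, a near-identical tubulin gene with which it may share fragments, was at 245 and 279.7 in fully grown and 232 and 204 in growing oocytes. Haus8, of the augmin complex that branches microtubules, was above its class range (55.2 and 101), while Haus1, of the same complex, stood at 54.6 and 34.2. Tubb4b, the most abundant of the list, was at 1002 and 1169. Of 50 genes of meiotic prophase 29 were at the minimum. Sycp1, of the synaptonemal complex, was past the size rule at 6.67 and 2.603, but not without the GC and length trend (-0.92), and Syce2 was at 729 and 793. Ccnb1, Anapc2, Tuba3a and Haus1 were named after their values were seen.

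Histone and chromatin genes lay on both sides. Replication-dependent histone mRNAs mostly lack a poly(A) tail, and only 10 of 68 such genes were at the minimum, 5 of them above control. Hist1h4d was at 13.5 FPKM in control and 35.6 in deletion and the linker histone gene Hist1h1a at 28.4 and 59.9. Both were past the size rule, 2 of the 10 genes, where 1.08% of all genes were higher. Hist1h1a missed it with rescaling (0.99). Hist1h2bc, the most abundant, was below its class range at 243 and 139, and Hist1h2aa was at 55.8 and 40.4. Among 31 histone variant and nucleoplasmin genes 28 were at the minimum, 14 on each side of control. H1fx was above its class range at 20.4 and 35.9, which shrank from 0.79 to 0.17 without the GC and length trend. Npm2, the nucleoplasmin of oocytes, was at 1472 and 1341. Of 58 genes of DNA and histone lysine methylation 39 were at the minimum, none outside its class range, and Trim28, the corepressor that works with KRAB zinc fingers, was at 43.97 and 68.5. H1fx and Trim28 were named after their values were seen.

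In the other lists most genes at the minimum did not pass the size rule. Counts above control are to be read beside 54.98% for all genes, whose median was 0.04. Of 51 p53 and nucleolar stress targets 21 were at the minimum, 13 above control, and only Mdm4 lay outside its class range, on the low side. The p53 gene Trp53 was at 25.7 and 31.7 FPKM, its target Bax at 33.7 and 48.1 and Mdm2 at 37.4 and 36.4, while Cdkn1a, the classical target, was under the minimum. The proteasome, which degrades ubiquitinated proteins, had 37 of 43 genes at the minimum, 24 above control, but with rescaling 37.84% were above control in place of 64.9%, and the median went from 0.03 to -0.04. Psma7, the most abundant of them, was at 1157 and 1138. Translation factors had 40 of 57 genes above control with a median of 0.10 (0.04 with rescaling), and aminoacyl-tRNA synthetases 16 of 24 with 0.14 (0.08 with the trend removed). Cholesterol synthesis had 8 of 15 genes above control, with a median of 0.29 that became 0.06 with the GC and length trend removed. Scap, the escort of the sterol sensor, was above its class range at 40.1 and 70.2. Of 48 genes of replication licensing and repair 46 were at the minimum, 54.3% of them above control and 69.57% with the trend removed, and Cdt1, a licensing factor that CRL4 ligases degrade, was above its class range at 58.5 and 103. Among 30 genes of the 2-cell stage 3 were at the minimum, all below control: Sp110 (343 and 305), Arg2 (240.1 and 196) and Cml2 (13.8 and 10.1). Of 370 solute carrier genes 88 were at the minimum, with Slc25a28, of a mitochondrial iron carrier, past the size rule on the high side (3.62 and 8.66) and Slc39a8 on the low side. Slc25a28 missed the rule without the GC and length trend (0.94). Of 32 genes of sperm binding, egg activation and calcium 22 were at the minimum, 11 on each side of control, with Rgn past the size rule and Stim2, a calcium sensor gene of the endoplasmic reticulum, below its class range (7.31 and 3.61). Keratins, claudins and serpins had 18 of 136 genes at the minimum. The size rule took 3 of these as higher and 2 as lower, against 1.08% and 1.09% of all genes, in a list drawn up with earlier results of these data known. They were Krt73, Cldn15 and, at 1.38 and 5.71, Krt71 on the high side, and Serpinb12 and Cldn8 (7.25 and 2.79) on the low side, where Cldn8 missed it without the GC and length trend (-0.94). Krt71 reached the minimum only in the deletion library and Cldn8 only in control. These counts are therefore no support for a trait of the families. Small RNA pathway genes, subunits of RNA polymerase II, ubiquitin-conjugating enzymes and glycolysis had no gene outside its class range. Trp53, Bax, Mdm2, Scap, Cdt1, Cml2 and Stim2 were named after their values were seen.

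The genes past the size rule in fully grown oocytes mostly stood on the same side in growing oocytes, a comparison that shares no library with this one. There 210 of 8010 genes were higher (2.62%) and 201 lower (2.51%) by the same rule. Of the 68 higher genes other than small RNA genes, 57 were at the minimum in growing oocytes, 51 of them above and 6 below control, with a median growing change of 0.69 against 0.05 for all genes. Past the rule in growing oocytes were 17 of the 57. Of the 61 lower genes 50 were at the minimum there, 44 below and 6 above control, with a median of -0.86, and 24 were past the rule. The genes on the other side included Ublcp1, Tuba3b and Xaf1, which encodes an antagonist of an apoptosis inhibitor (11.6 and 4.38 FPKM in fully grown, 4.83 and 8.55 in growing oocytes). Some genes were close to control in growing oocytes, such as Ugcg, the glucosylceramide synthase gene (15.01 and 3.92 in fully grown, 9.26 and 10.01 in growing oocytes), and the homeobox gene Noto (66.96 and 30.5, 126 and 133). Whether the 2 stages differ was not tested. The share of all genes on the same side at both stages was not counted, so these counts lack that background. Without small RNA genes, the higher genes had a median GC content of 54.5% and the lower genes 45.4%. The part of GC content in the counts was not tested. Xaf1, Ugcg and Noto were named after their values were seen.

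**Figure D5:**
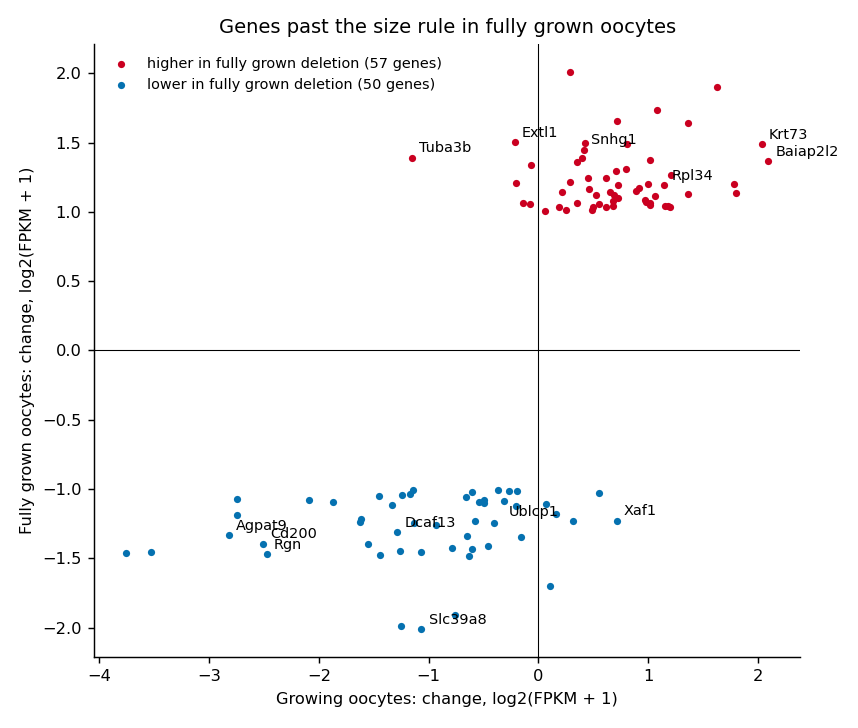
Change in log2(FPKM + 1) in growing (horizontal axis) against fully grown oocytes (vertical axis) for the 57 higher (red) and 50 lower (blue) genes of the fully grown comparison that were at the minimum in growing oocytes, without small RNA genes. Vertical positions beyond 1 or -1 follow from the choice of genes, and 51 of the red points lie right and 44 of the blue points left of 0, with Tuba3b and Xaf1 among the exceptions.

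The change went with the base composition of the transcripts. Over 7342 genes with a GENCODE transcript, Spearman's rho was 0.39 with GC content and -0.03 with length, as a description of these 2 libraries. Genes were put into 4 equal groups by GC content. In the group with the lowest content the median change was -0.12, with 10 higher and 33 lower by the size rule. It was -0.00 in the next group (9 and 17), 0.09 in the third (16 and 12) and 0.23 in the highest (44 and 17). The higher genes had a median GC content of 54.5%, the lower genes 45.4% and all genes 49.0%. The trend was measured over all genes and not within single lists, and its source was not tested. After its removal 66 genes were higher and 69 lower, of which 54 and 58 were among those counted before.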

How the data were processed

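RNA of 10 oocytes per sample was made into cDNA by Smart-seq2 from oligo-dT primers, and libraries were prepared with Tn5 transposase, per the labels' protocols. The deposited values are FPKM, which the authors computed before deposit, with 1 row per gene symbol. Cufflinks 2.2.1, TopHat2 2.0.11, Bowtie2 2.1.0, CASAVA 1.8 and the genome mm9 were used, per the submitters' processing notes, which give no roles. Sources used here state neither gene models, strand handling nor filters, and FPKM does not show depth.

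The 23235 symbols sorted in byte order were paired with the value rows in file order, which moves 19122 symbols and leaves 4113. The 4 tables of single samples hold the values of the series table. A change is the difference of log2(FPKM + 1) between 1 library and 1 library, so no test was run. The size rule asks for 5 FPKM in either library and a change of at least 1. Median-ratio rescaling lowers the median change by 0.06 (log2). A cubic trend (degree 3) in GC content and log length of the longest GENCODE M21 transcript, matched for 99.04% of genes at the minimum, was removed as an alternative. The other alternatives were a pseudocount of 0.1, minimums of 1 and 20 FPKM, the deposited pairing and small RNA genes left out. Abundance class ranges and the sum of Rpl34 with Rpl34-ps1 were added after the values were seen. The calculation was tested on simulated data.

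Genes and 48 gene lists were chosen with earlier results of these data known. Named genes were Dcaf13, the 12 largest increases and decreases at 20 FPKM or more, the 6 largest in each direction at 100 to 500 and at 500 FPKM or more, the 10 most abundant, members of each list past the size rule, its 2 most abundant and the 3 most abundant markers of other cell types. Predicted and small RNA genes and pseudogenes were left out of the ranked sets, and genes named beyond this are pointed out. After the values were seen, 1 gene that is no cytochrome c oxidase subunit was taken off that list, and the lists described first were picked out of the 48. Values were computed with Python 3.11.15, numpy 2.4.6, pandas 2.3.3 and scipy 1.17.1.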

Additional observations from a re-analysis of the deposited data

Results flagged for a closer look

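Small differences aside, 2 genes past the size rule lay in opposite directions at the 2 stages, and the difference between stages was not tested. Tuba3b, an alpha-tubulin gene, had a change of 1.391 in fully grown oocytes, from 19.1 FPKM in control to 51.6 in deletion, and of -1.15 in growing oocytes, from 30.2 to 13.04 FPKM. The near-identical Tuba3a went the same way by far less at both stages (0.19 and -0.18). Mir3968 had a change of -5.88 in fully grown oocytes, being at 57.9 FPKM in control and listed at 0 in deletion. In growing oocytes it was listed at 0 in control and at 10.2 FPKM in deletion. With 1 library a group, neither value has an error.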

How the results depend on the processing

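The size rule gave 80 higher and 81 lower genes as reported, 143 and 133 with a minimum of 1 FPKM, and 21 and 38 with a minimum of 20 FPKM. The counts were 111 and 111 with a pseudocount of 0.1, 65 and 96 with median-ratio rescaling, 66 and 69 with the GC and length trend removed, and 68 and 61 without small RNA genes. Higher genes thus made up 49.7% of those past the rule as reported and 40.4% with rescaling. Of the 63 named genes followed through these settings, which leave out many other genes named above, none changed direction while past the rule. With the trend removed 10 missed the rule, with rescaling 5, and Rpl34 when summed with Rpl34-ps1 (0.29). Pde6d reached it under both (-1.01 and -1.06), Ddit3 (1.03) and Fgf8 (-1.12) with the trend removed. The share of large subunit ribosomal protein genes above control was 95.92% with the trend removed. For 41 of 42 lists the share above control in the deposited pairing stayed within the exact binomial 95% interval of the share as reported. For 18S processing it was 50%, outside that interval. These intervals treat the genes of a list as independent and hold no error between libraries. They are also wide, so this says little about the pairing. Leaving out a library was not possible with 1 library a group. No paired analysis was possible because the groups compared share fewer than 2 replicate numbers. Without depth or replicates, small differences of single genes cannot be separated from noise.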
